A study of Mus musculus with 6 samples.

Results

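Expression of 9 lens and retina genes was examined in maxillary processes of E12.5 mouse embryos, to see whether eye markers were higher when Dlx2 was overexpressed. These were the eye field transcription factor genes Pax6, Six3, Six6 and Rax, the crystallin genes Cryaa, Cryab, Cryba1 and Crybb3, and the lens fibre regulator Prox1, found by their symbols among the 53801 genes of the count tables. A set of 6 of them had enough counts to be tested, among 17514 genes tested in all. No rise was called among the 6, but the intervals of Pax6 and Six6 were too wide to exclude one. Rax, Cryaa and Cryba1 were not tested. By edgeR's quasi-likelihood test, 0 of the 6 were called upregulated and 1, Prox1, was called downregulated, beside 1.5% of all genes tested that were called upregulated, 1.62% that were called downregulated and 3.12% called in either direction. An adjusted p under 0.05 at any fold change was likewise found for 1 of the 6, beside 6.45% of all genes. DESeq2 called 0 upregulated and 2 downregulated, Prox1 and Cryab. Counts above every WT sample were seen for Six6 in a single Dlx2OE sample and for Cryba1 in 2 Dlx2OE samples. Among other lens, retina, pigment epithelium and periocular genes, edgeR called Tbx5, Dct, Pmel, Lmx1b, Foxl2 and Tfap2b upregulated and Sox2 downregulated.

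The eye field is the patch of anterior neural plate that forms the retina, and Pax6, Six3, Six6 and Rax are the homeodomain factors that specify it. Pax6 and Six3 also act in the surface ectoderm that thickens into the lens placode, and later in the forebrain and olfactory placode, while Six6 marks the retina, hypothalamus and pituitary. Lens fibre cells then fill with crystallins under the control of factors such as Maf, Sox1 and Prox1. The maxillary process borders the eye, but neither lens nor retina is part of it.

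The samples were 3 WT and 3 wnt1cre; Rosa26Dlx2/- (Dlx2OE) RNA preparations, all of E12.5 maxillary prominences labelled C57BL/6, with C57BL/6J given for the cassette line and the WT mice. Dlx2OE embryos carry a CAG-LSL-Dlx2-3xFlag cassette at the Rosa26 locus, which Cre driven by Wnt1 switches on in neural crest-derived cells, and both genotypes keep the endogenous Dlx2 gene. Tissue of several littermates was used for RNA, so a sample may pool embryos. WT was the only control, so that the Dlx2 cassette and the presence of Cre cannot be told apart. Lens, retina and surface ectoderm do not derive from neural crest and are not the cells in which this Cre is meant to act.

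Between 26155500 and 31308813 counts on genes were obtained per sample, and 3 counts, taken as the floor of detection, equalled 0.0955 to 0.111 CPM (counts relative to library size, scaled by the TMM method). Dlx2 was higher in every Dlx2OE sample, with 3336 to 4102 counts against 1056 to 1409 in WT (log2 fold change 1.60, SE 0.118, adjusted p = 0.00241). The 15 maxillary mesenchyme markers were all expressed and summed to 2000 to 2362 CPM in WT and 2491 to 2959 CPM in Dlx2OE. Of the 15, Alx4 and Tfap2a were called upregulated, beside 1.5% of all genes tested. The Dlx2OE samples were not alike: sample 1 had the highest summed surface epithelium markers, at 2008 CPM, whereas samples 2 and 3 had 675 and 685 CPM. Dlx2OE sample 3 had the largest share of reads on no annotated gene, 14.7%, beside 5.03% to 7.81% in the other samples.

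Starts of 7 of the 9 genes are listed in the RefSeq promoter table for GRCm38.p6. For 4 of the genes the results turn on, the 100 bases before the transcription start overlap no annotated exon and are shown here 5′ to 3′ on the strand of the gene. They are Prox1, the gene called downregulated (chr1:190170828-190170927, reverse strand), Pax6, the tested gene with the widest spread among WT samples (chr2:105668796-105668895, forward strand), and the lens genes Cryba1 (chr11:77725294-77725393, reverse strand) and Crybb3 (chr5:113081585-113081684, reverse strand). Capitals mark TATAAA, the TATA box, and TGCTGA, the core recognised by Maf factors, on either strand.
Prox1: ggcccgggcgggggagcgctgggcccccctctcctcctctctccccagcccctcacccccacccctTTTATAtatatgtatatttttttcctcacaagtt
Pax6: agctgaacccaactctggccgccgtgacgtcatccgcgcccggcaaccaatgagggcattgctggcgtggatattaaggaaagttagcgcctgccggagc
Cryba1: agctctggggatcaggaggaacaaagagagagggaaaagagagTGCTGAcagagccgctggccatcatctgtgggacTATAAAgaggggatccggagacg
Crybb3: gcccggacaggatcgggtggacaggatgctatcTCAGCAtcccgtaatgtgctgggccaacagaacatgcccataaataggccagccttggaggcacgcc
The TATA box lay 23 bases before the start in Cryba1 and, on the opposite strand, 34 bases before it in Prox1. The Maf core lay 57 bases before the start in Cryba1 and, on the opposite strand, 67 bases before it in Crybb3. Over the 250 bases before each of the 9 listed starts, TGCTGA was found in 4 starts and TATAAA in 2, and no match overlapped another. Among all 32851 promoters of the table, 16.1% held TGCTGA and 12.4% held TATAAA in the same window. TAATTA, a core bound by Dlx-type homeodomains, was found in 0 of the 9 starts and in 4.84% of all promoters. These matches describe letters and show no binding.

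Pax6 (ENSMUSG00000027168, chromosome 2, 105668900 to 105697364, forward strand) had 29, 266 and 205 counts in WT samples 1 to 3, against 234, 83 and 80 in Dlx2OE samples 1 to 3. The lowest sample was a WT and the genotypes overlapped, with 5.46 ± 4.03 CPM in WT against 4.50 ± 2.95 CPM in Dlx2OE (SD, n = 3 per genotype). The log2 fold change was -0.28 (SE 0.716, 95% confidence interval -1.93 to 1.37, adjusted p = 0.811), and it was 0.24 without WT sample 2. An interval of this width does not separate a fall from a rise. In these bulk samples, fewer cells of a type and less RNA per cell cannot be told apart.

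Six3 (ENSMUSG00000038805, chromosome 17, 85613608 to 85629302, forward strand), which represses Wnt signals in the forebrain and promotes lens formation, had 184, 719 and 418 counts in WT against 419, 46 and 57 counts in Dlx2OE. Dlx2OE samples 2 and 3 were below every WT sample, but Dlx2OE sample 1 lay among them. The levels were 14.5 ± 8.84 CPM in WT against 5.90 ± 7.14 CPM in Dlx2OE (SD, n = 3 per genotype), with a log2 fold change of -1.30 (SE 0.836, 95% confidence interval -3.23 to 0.63, adjusted p = 0.328). Without Dlx2OE sample 1, Six3 was called downregulated, at a log2 fold change of -3.04 and an adjusted p of 0.0183. Its antisense neighbor Six3os1 was likewise lowest in Dlx2OE samples 2 and 3, with 426, 1464 and 972 counts in WT against 1047, 191 and 124 in Dlx2OE (log2 fold change -1.03, adjusted p = 0.387). Exons of Six3 overlap those of other genes, Six3os1 included, over 5.03% of their length, and the library kit does not mark strand, so reads there cannot be assigned to either gene.

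Six6 (ENSMUSG00000021099, chromosome 12, 72939892 to 72944899, forward strand) had 15, 19 and 6 counts in WT against 0, 101 and 7 counts in Dlx2OE. A single sample, Dlx2OE sample 2, was high, and the other Dlx2OE samples lay within or below the WT range. The log2 fold change of 1.39 (SE 1.24, 95% confidence interval -1.48 to 4.26, adjusted p = 0.478) turned to -1.79 without that sample. The antisense gene Six6os1, which overlaps 4.79% of the Six6 exon length, overlapped between genotypes, with 217 to 304 counts in WT and 240 to 375 in Dlx2OE (log2 fold change 0.31, adjusted p = 0.364). Rax (ENSMUSG00000024518, chromosome 18), an early marker of the eye field that is required for the optic vesicle, had 2, 0 and 2 counts in WT against 0, 0 and 1 in Dlx2OE. At no more than 2 counts in any sample, Rax was below the floor throughout and was not tested.

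**Figure D1:**
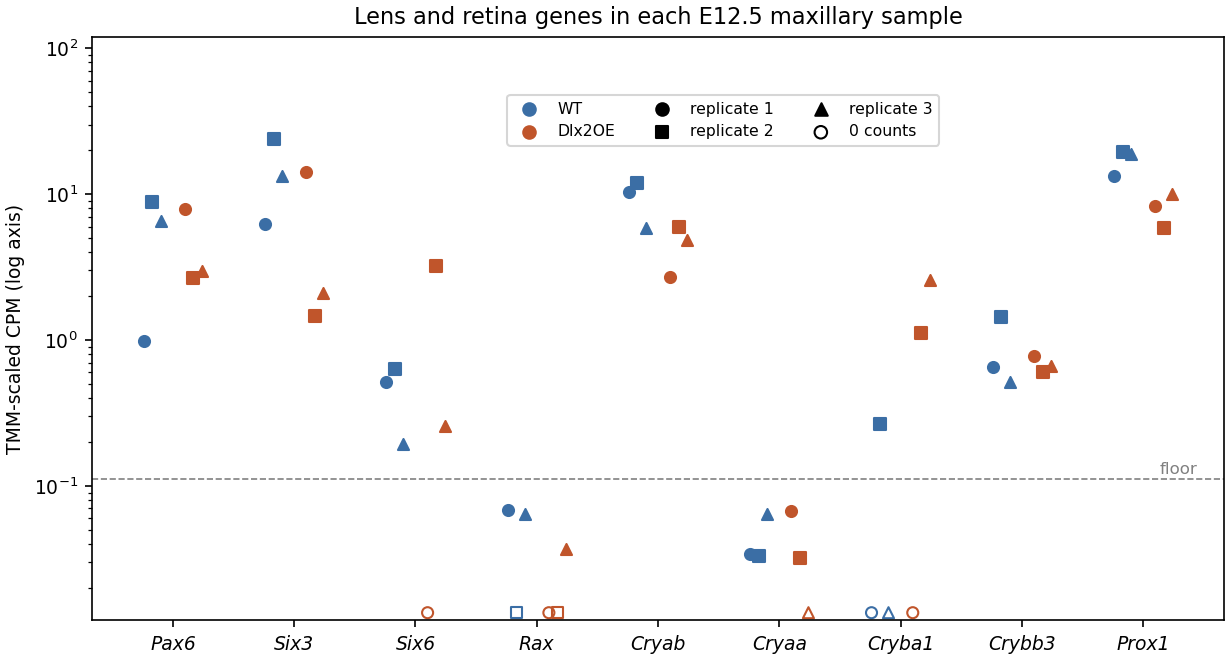
TMM-scaled CPM on a log axis for each of the 9 lens and retina genes, with 1 point per sample, WT in blue and Dlx2OE in orange. Open symbols at the bottom edge are samples with 0 counts, and the dashed line is the highest floor of 3 counts, 0.111 CPM. Prox1 is the only gene with all 3 Dlx2OE samples below all 3 WT samples, Rax and Cryaa stay under the floor, and Six6 and Cryba1 exceed every WT sample in 1 and 2 Dlx2OE samples.

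Cryaa (ENSMUSG00000024041, chromosome 17, 31677807 to 31681733, forward strand), an alpha-crystallin gene largely restricted to the lens, had 1, 1 and 2 counts in WT against 2, 1 and 0 in Dlx2OE. No sample was above the floor, so Cryaa was not detectable at this depth and was not tested. Cryab (ENSMUSG00000032060, chromosome 9, 50751325 to 50756636, forward strand) encodes the other alpha-crystallin, a small heat shock protein also made by heart and skeletal muscle. It had 303, 360 and 183 counts in WT against 80, 188 and 131 counts in Dlx2OE. The genotypes overlapped by a narrow margin, since WT sample 3 had 5.87 CPM and Dlx2OE sample 2 had 5.99 CPM. The levels were 9.39 ± 3.15 CPM in WT against 4.51 ± 1.67 CPM in Dlx2OE (SD, n = 3 per genotype), a log2 fold change of -1.06 (SE 0.358, 95% confidence interval -1.88 to -0.23, adjusted p = 0.103). DESeq2 called Cryab downregulated (adjusted p = 0.0152), as did edgeR with no filter on low counts (adjusted p = 0.0415). Exons of Cryab overlap those of its neighbor Hspb2 over 17% of their length, and Hspb2, another small heat shock gene, had 9, 12 and 12 counts in WT against 0, 0 and 6 in Dlx2OE.

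Cryba1 (ENSMUSG00000000724, chromosome 11, 77718615 to 77725283, reverse strand), a beta-crystallin gene, had 0, 8 and 0 counts in WT against 0, 35 and 70 counts in Dlx2OE. Dlx2OE samples 2 and 3, at 1.12 and 2.59 CPM, were above every WT sample, while Dlx2OE sample 1 had no count. The low-count filter removed Cryba1, and an exact two-sided permutation test of its CPM gave p = 0.4, where 0.1 is the smallest possible with 3 samples a genotype. The adjusted p was 0.478 by DESeq2 and 0.0568 by edgeR with no filter on low counts. Cryba1 passed the filter when Dlx2OE sample 1 was left out, and was then called upregulated (adjusted p = 0.0297). It also passed without each WT sample in turn, with adjusted p-values of 0.222 to 0.303. In all of these fits Cryba1 passed only through Dlx2OE samples 2 and 3, where it was high. Their p-values are therefore no separate evidence of a rise. Crybb3 (ENSMUSG00000029352, chromosome 5, 113075839 to 113081584, reverse strand), another beta-crystallin gene, had 19, 43 and 16 counts in WT against 23, 19 and 18 in Dlx2OE. The genotypes overlapped, and the log2 fold change was -0.34 (SE 0.432, 95% confidence interval -1.33 to 0.66, adjusted p = 0.625), or 0.22 without WT sample 2.

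Prox1 (ENSMUSG00000010175, chromosome 1, 190118035 to 190170714, reverse strand) encodes a homeodomain factor needed for lens fibre elongation and for the lymphatic endothelium. It had 392, 587 and 587 counts in WT against 247, 185 and 273 counts in Dlx2OE, and every Dlx2OE sample was below every WT sample, as for 17.3% of all genes tested. The level was 17.2 ± 3.34 CPM in WT against 8.10 ± 2.10 CPM in Dlx2OE (SD, n = 3 per genotype), so Prox1 fell 2.13-fold (log2 fold change -1.09, SE 0.239, 95% confidence interval -1.64 to -0.54, adjusted p = 0.0400). Ranked by p, Prox1 was number 806 of the 17514 genes. The call was close to its threshold. Leaving out any of the WT samples, Dlx2OE sample 2 or Dlx2OE sample 3 gave adjusted p-values of 0.0537 to 0.156 by edgeR, whereas without Dlx2OE sample 1 it was 0.0389. Scaling by library size alone gave 0.0530. The antisense gene Prox1os, which shares 1.59% of the Prox1 exon length, had at most 10 counts in any sample.

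**Figure D2:**
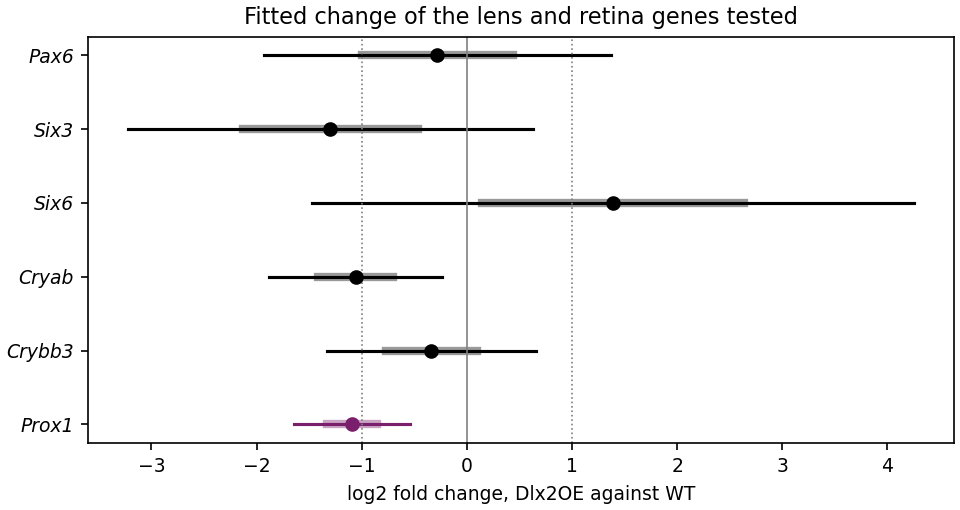
Log2 fold change of Dlx2OE against WT for the 6 lens and retina genes tested, with the SE as a thick bar and the 95% confidence interval as a thin line. Dotted lines mark log2 fold changes of -1 and 1, and Prox1, in purple, is the only gene called. The intervals of Pax6, Six3, Six6 and Crybb3 include 0.

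Per kilobase of exon, which allows levels of different genes to be compared, Cryab was the highest of the 9 in WT, at 6.35 ± 2.13 CPM per kb (SD, n = 3). Six3 followed with 2.67 ± 1.62, Prox1 with 2.05 ± 0.398, Pax6 with 0.467 ± 0.345 and Crybb3 with 0.370 ± 0.211 CPM per kb. Six6 had 0.111 ± 0.0565, Cryba1 0.0555 ± 0.0962, Cryaa 0.0211 ± 0.00848 and Rax 0.00755 ± 0.00655 CPM per kb. The ranges of neighbors in this order overlapped over the 3 WT samples, other than between Prox1 and Pax6, between Crybb3 and Six6 and between Cryaa and Rax. Even so, Cryaa and Rax, with at most 2 counts in any sample, cannot be ordered. In Dlx2OE the order was the same but for Cryba1, which moved ahead of Pax6 at 0.774 ± 0.813 CPM per kb.

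Pax6 in WT, and Six3 in both genotypes, varied more between samples than nearly all other genes. In WT, the highest sample exceeded the lowest 8.91-fold for Pax6 and 3.8-fold for Six3, more than for 99.3% and 97.1% of the 17436 genes with a count in every sample. In Dlx2OE, Six3 differed 9.65-fold between samples, more than 98.8% of those genes, and Pax6 2.99-fold, more than 92.2%. The median gene differed 1.31-fold among WT and 1.28-fold among Dlx2OE samples, and Prox1 differed 1.45-fold and 1.71-fold. Over the 6 tested genes, 1 had a log2 fold change above 0 and 5 below 0, and the median was -0.70 beside 0.0028 for all genes. An unadjusted p under 0.05 was found for 2 of the 6, Cryab and Prox1, beside 29.5% of all genes tested.

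The genes most like Pax6 were looked for by the root mean square difference of their centred log2 CPM over the 6 samples. The closest were 4930426D05Rik (0.174), Espn (0.291), Panct2 (0.327), Fyb2 (0.327) and Casr (0.375). The count of 4930426D05Rik, for example, was 8, 80 and 50 in WT and 72, 19 and 18 in Dlx2OE. All 5 were low in WT sample 1 and in Dlx2OE samples 2 and 3, and none was called changed. Both follow from their choice by likeness to Pax6 over these same samples.

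The rest of the lens program was read from 26 other lens genes, namely crystallins, fibre cell membrane and cytoskeleton genes and lens transcription factors. Only 9 had enough counts to be tested, and by edgeR 0 were called in either direction. DESeq2 also called 0. The 9 fitted log2 fold changes were all below 0, with a median of -0.46 beside 0.0028 for all genes, and 3 had an unadjusted p under 0.05, beside 29.5% of all genes. Crybb1, a beta-crystallin gene, had 14, 18 and 14 counts in WT against 8, 4 and 4 in Dlx2OE (log2 fold change -1.46, adjusted p = 0.0771). Bfsp2, a filament protein of lens fibres, had 19, 42 and 24 counts in WT against 5, 3 and 13 in Dlx2OE (log2 fold change -1.93, adjusted p = 0.083). For both, every Dlx2OE sample was below every WT sample, as for 17.3% of all genes, which the other 7 tested genes did not show.

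Maf, the basic leucine zipper activator of crystallin genes, was the highest of these lens genes per kilobase, and it is also made in other tissues. It had 562, 787 and 893 counts in WT against 483, 494 and 591 in Dlx2OE (log2 fold change -0.46, adjusted p = 0.161). Cryba4 had 11 to 21 counts in WT and 3 to 12 in Dlx2OE (log2 fold change -1.04, adjusted p = 0.231). Pitx3, a homeobox gene of the lens vesicle that is also made in muscle, had 61 to 109 counts in WT and 23 to 103 in Dlx2OE (log2 fold change -0.22), and Bfsp1, the partner of Bfsp2, had 59 to 87 and 46 to 81 counts (log2 fold change -0.08). The direction of Pitx3 and Bfsp1 turned when single samples were left out.

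The gamma-crystallins that define differentiating lens fibres were at or near 0. Crygd, Cryge and Crygf had 0 counts in all 6 samples. Cryga and Lenep were also at 0, but 47.9% and 99.1% of their exon length overlaps another gene, where union counting can set reads aside as ambiguous, so a 0 there says little. In all, 11 of the 26 genes had at most 3 counts in every sample. The beta-crystallin gene Crybb2 had 3 counts in WT sample 3 and 0 elsewhere. Among genes removed by the filter, and named after their values were seen, the fibre membrane gene Lim2 had 8, 11 and 5 counts in WT against 1, 1 and 0 in Dlx2OE. The summed level of the 26 genes was 27.3 to 37.8 CPM in WT and 22.0 to 29.6 CPM in Dlx2OE, most of it Maf.

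**Figure D3:**
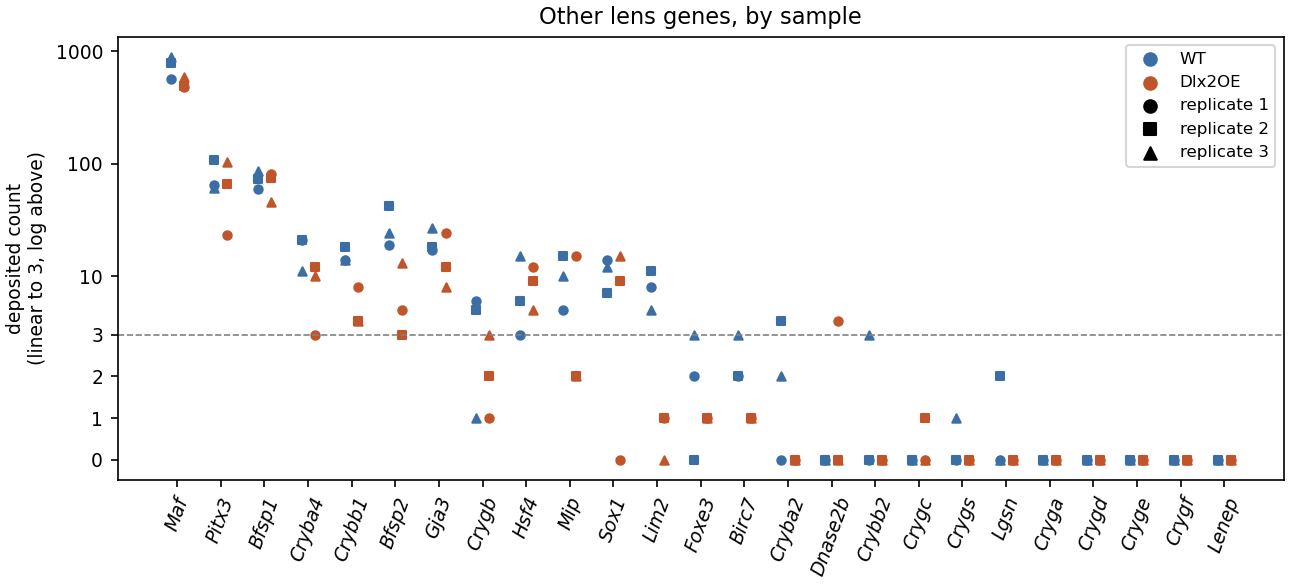
Deposited counts of other lens genes in each sample, on an axis that is linear up to 3 counts and logarithmic above, WT in blue and Dlx2OE in orange. Genes are ordered by their level per kilobase. The dashed line is the floor of 3 counts, and 11 genes do not exceed it in any sample.

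Of 20 other retina genes, 6 were tested, of which 1 was called upregulated and 1 downregulated, beside 1.5% and 1.62% of all genes tested. Tbx5, which patterns the dorsal retina and is also known from limb and heart, had 0 counts in every WT sample and 22, 36 and 15 counts in Dlx2OE. Against a floor of 3 counts per WT library it was at least 8.19-fold higher (adjusted p = 0.0150). The call was lost when WT sample 2 or Dlx2OE sample 2 was left out, with an adjusted p of at most 0.0663. Sox2, a factor of neural and placodal progenitors, had 2130, 3566 and 3113 counts in WT against 1052, 814 and 814 in Dlx2OE. It fell 3.18-fold (log2 fold change -1.67, SE 0.194, adjusted p = 0.00844), and the call held without any of the 6 samples.

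Otx2, an anterior neural and retinal factor, had 100, 926 and 559 counts in WT against 116, 23 and 29 in Dlx2OE, and its log2 fold change, -3.18, did not pass (SE 0.862, adjusted p = 0.0628). It was called downregulated by DESeq2 (adjusted p = 0.0236), by edgeR with no filter on low counts (0.0041) and without Dlx2OE sample 1 (0.0250). Dlx2OE sample 1 lay within the WT range for Otx2. Lhx2, a LIM factor of optic vesicle and forebrain, had 27, 1298 and 797 counts in WT against 661, 55 and 115 in Dlx2OE (log2 fold change -1.30, adjusted p = 0.485). Fgf15 had 12 to 62 counts in WT and 8 to 14 in Dlx2OE (log2 fold change -1.59, adjusted p = 0.128). The markers that define neural retina were scarce: Ptf1a and Vax2 had 0 counts in every sample. Both were named after their values were seen.

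Several of the 9 genes are also markers of other tissues that a dissected maxillary process could hold, so the marker lists of those tissues were set beside them. The genes shown for this purpose were named after their values were seen. Pax6 and Six3 were lower in WT sample 1 and Dlx2OE samples 2 and 3 than in the other samples, and so were some forebrain and olfactory genes, such as Fezf1, with 8, 447 and 207 counts in WT against 168, 3 and 3 in Dlx2OE. Sp8 had 64, 599 and 405 counts in WT against 349, 18 and 26 in Dlx2OE. The summed level of the 12 forebrain markers was 11.2 to 33.8 CPM in WT and 26.3 to 55.5 CPM in Dlx2OE, with Gsx2 at 0. That of the 10 olfactory epithelium markers was 156 to 245 CPM in WT and 178 to 264 CPM in Dlx2OE, and it was highest in Dlx2OE sample 3, where Pax6 and Six3 were low. Other genes of these lists did not follow Pax6 either: Emx2 had 219, 324 and 350 counts in WT against 1274, 694 and 675 in Dlx2OE, and Neurog1 had 8, 240 and 96 in WT against 82, 98 and 231 in Dlx2OE. Of the olfactory markers 9 were tested, and Emx2, which is also a forebrain marker, was called upregulated. The part of these tissues in the values of Pax6 and Six3 was not tested.

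Dlx2OE sample 2, the only sample with high Six6, was also the only sample with high Lhx3, at 109 counts beside 0 to 10 in the others. In the same sample Hesx1 had 54 counts beside 1 to 8. Both are transcription factors of the anterior pituitary primordium. Lhx4, another such factor, had 55 counts there, 29 in Dlx2OE sample 3 and at most 4 elsewhere. The summed level of the 10 pituitary markers, which include genes that oral ectoderm also makes, such as Pitx1, was 150.4 to 197 CPM in WT and 93.6 to 168 CPM in Dlx2OE, and at 124 CPM it was lower in Dlx2OE sample 2 than in any WT sample. Pomc, the pituitary hormone precursor, had 31 counts in that sample and 28 to 88 in the others, so the list as a whole did not follow Six6. Of the 5 tested, 0 were called by edgeR, with 1 at an unadjusted p under 0.05, beside 29.5% of all genes tested. DESeq2 called 1 upregulated, Lhx4. The part of pituitary tissue in the Six6 value was not tested.

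Cryba1 was detected above the floor in WT sample 2 and Dlx2OE samples 2 and 3, which had the largest summed levels of the 12 neuron markers, 381, 754 and 1726 CPM. In the other samples the sum was 86.0 to 208 CPM. The sensory neuron factor Pou4f1 had 70, 633 and 1642 counts in these same samples and 10 to 21 in the others. Neurod4, from the retina list, had 120 and 240 counts in Dlx2OE samples 2 and 3 and at most 4 in the others, and DESeq2 called it upregulated. Pou4f2 had 21 and 59 counts against at most 4. All 12 neuron markers were tested, and 0 were called by edgeR. All 12 had a log2 fold change above 0, as did 8807 of all 17514 genes tested, and 5 had an unadjusted p under 0.05, beside 29.5% of all genes. DESeq2 called 1 upregulated, Pou4f1. The part of neurons in the Cryba1 counts was not tested.

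For Cryab, the 12 skeletal muscle markers summed to 201 to 441 CPM in WT and 83.9 to 233 CPM in Dlx2OE. WT sample 2 was the highest sample for both, and sample 1 was the lowest Dlx2OE sample for both. The other samples differed: in Dlx2OE sample 3 the muscle sum, 233 CPM, was above WT samples 1 and 3, at 201 and 216 CPM. Cryab in Dlx2OE sample 3, at 4.84 CPM, was below every WT sample. The lowest WT sample was sample 1 for the muscle sum and sample 3 for Cryab. All 11 muscle markers tested had log2 fold changes below 0, as did 8707 of all 17514 genes tested, with a median of -0.86 beside 0.0028 for all genes. By edgeR 0 were called, and 4 had an unadjusted p under 0.05, beside 29.5% of all genes tested. For Prox1, the lymphatic markers Lyve1 and Flt4 had 19 to 29 and 416 to 678 counts in WT, and 4 to 38 and 407 to 589 in Dlx2OE, and both overlapped between genotypes. The 10 endothelial markers summed to 385 to 551 CPM in WT and 353 to 468 CPM in Dlx2OE. By edgeR 0 of 10 were called, with 3 at an unadjusted p under 0.05, beside 29.5% of all genes tested. DESeq2 also called 0 in either list. Among the endothelial markers, Emcn had an adjusted p of 0.0464 but a log2 fold change of -0.98. The 12 surface epithelium markers summed to 846 to 1522 CPM in WT and 675 to 2008 CPM in Dlx2OE. Of the 12, Krt8 and Krt18 were called downregulated, beside 1.62% of all genes tested. The part of muscle, endothelium and epithelium in the values of Cryab and Prox1 was not tested.

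**Figure D4:**
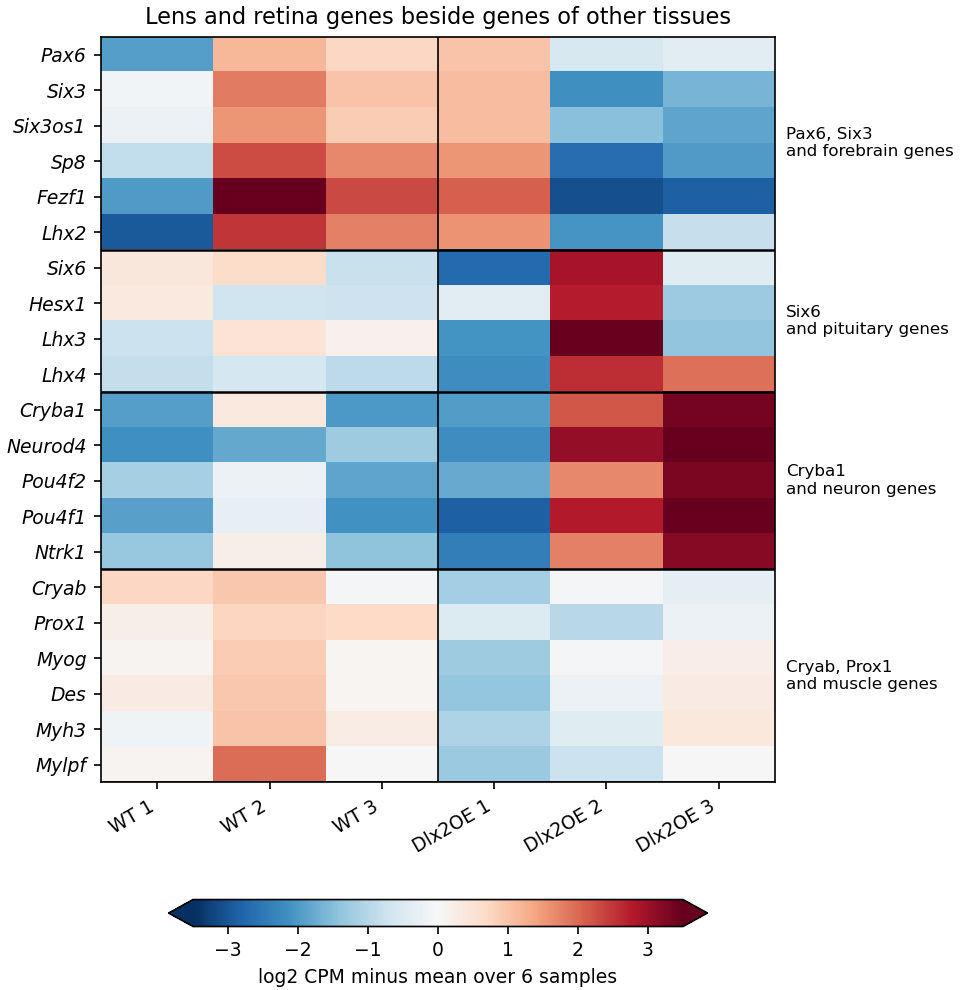
Log2 CPM minus the mean over the 6 samples, with a prior count of 2, for lens and retina genes and genes of other tissues, 1 column per sample, red above and blue below the mean. Genes other than the 9 were picked after their values were seen. Pax6 and Six3 share low columns with the forebrain genes drawn, Six6 a high Dlx2OE sample 2 with the pituitary genes drawn, and Cryba1 high Dlx2OE samples 2 and 3 with neuron genes, while Emx2 of the forebrain list and Pomc of the pituitary list, not drawn, did not follow these patterns.

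**Figure D5:**
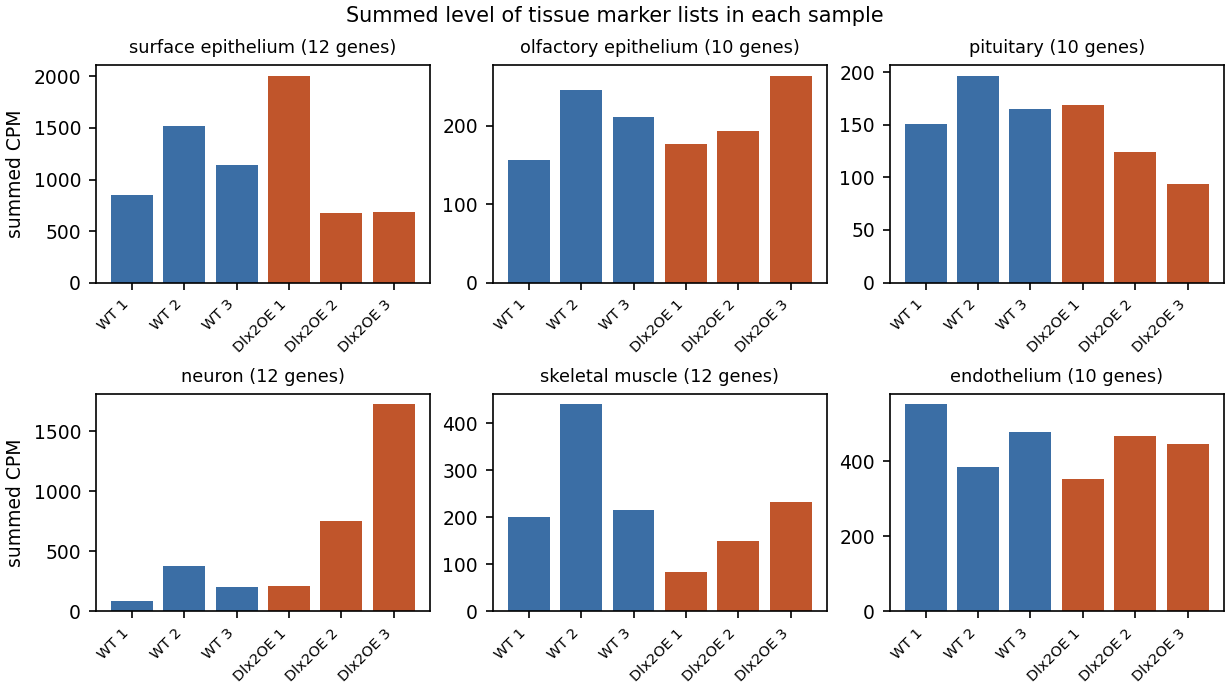
Summed TMM-scaled CPM of 6 tissue marker lists in each sample as bars from 0, WT in blue and Dlx2OE in orange. The neuron sum is highest in Dlx2OE samples 2 and 3 (754 and 1726 CPM), the surface epithelium sum in Dlx2OE sample 1 (2008 CPM) and the muscle sum in WT sample 2 (441 CPM).

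The neighbors Pax6os1 and Elp4 of Pax6 were also read. Pax6os1 had at most 1 count in any sample, and Elp4, whose gene body carries distant Pax6 enhancers, had 888 to 1092 counts in WT and 810 to 1135 in Dlx2OE (log2 fold change -0.01, 95% confidence interval -0.31 to 0.30).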

How the data were processed

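RNA-seq was analysed in 3 WT and 3 wnt1cre; Rosa26Dlx2/- (Dlx2OE) samples of E12.5 maxillary prominences. Per the labels and the methods, the authors removed adaptors and low-quality reads, mapped reads to mm10 with STAR 2.7.3a, counted them per gene with htseq-count 0.12.4 in union mode, and deposited raw counts without normalization. The annotation release and strand setting are not given in the sources used here. The kit is not one that marks strand. Of the 53801 identifiers in the files, 53706 have an entry in GENCODE M21 (GRCm38), the source of symbols and positions, and Six6os1 was matched through a RefSeq synonym. Promoter sequences came from RefSeq (GRCm38.p6).

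Counts were tested over all genes with edgeR 4.0.16 in R 4.3.3: filterByExpr with a minimum count of 10, TMM scaling, the quasi-likelihood F test with genotype as the only term, and Benjamini-Hochberg adjustment over 17514 genes. Calls required an adjusted p below 0.05 and a log2 fold change over 1 or under -1. Single values were checked with an exact two-sided permutation test. Levels are TMM-scaled CPM, and log2 CPM used a prior count of 2. Floors of 3 counts cover counting error only. Nothing in the labels says that replicates came from separate litters, so p-values measure the spread between these samples.

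The alternatives were DESeq2 1.42.0, no filter on low counts, a mean CPM of at least 1, RLE factors, library size alone, any fold change, a replicate block and each sample left out in turn. The 9 genes and the marker lists were chosen with earlier results of these data known. Genes of the other eye lists were named by the 4 smallest p-values and the 3 highest levels per length, genes of the other lists by the 2 smallest p-values, and antisense and neighboring genes in full. Exceptions are stated, and some genes of the lists are not reported here. The scripts were tested on simulated data. Python 3.11.15 with matplotlib 3.10.9 drew the figures.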

Additional observations from a re-analysis of the deposited data

Results flagged for a closer look

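A signal appeared in counts that the comparison of genotypes did not use. The low-count filter removed Cryba1, a beta-crystallin gene, which had 35 counts in Dlx2OE sample 2 and 70 in Dlx2OE sample 3, against at most 8 in WT. Dlx2OE sample 1 had 0 counts.

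Reads that fell on no annotated gene were also outside the comparison, and their share was above the WT range of 5.03% to 5.43% in every Dlx2OE sample. It was 5.75% in sample 1, 7.81% in sample 2 and 14.7% in sample 3. Cryba1 had its highest count in the sample with the highest share, and whether these move together for a common reason was not tested.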

How the results depend on the processing

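Without any change in the test, 0 of the 6 lens and retina genes tested were called upregulated and 1 downregulated. The low-count filter had removed Rax, Cryaa and Cryba1, so these could not be called. The number downregulated was 2 with DESeq2 and 2 with no filter on low counts, 0 with library size alone and 0 with a replicate block, and with each sample left out it ranged from 0 to 2, while the number upregulated ranged from 0 to 1. The gene then called upregulated was Cryba1, which passed the filter only through Dlx2OE samples 2 and 3, where it was high. Prox1 had an adjusted p of 0.0582 with the block. Same-numbered samples of the 2 genotypes deviated with correlations of -0.0731, -0.215 and 0.071, so the numbers were not taken as pairs. With no filter on low counts 1 other lens gene, Bfsp2, was called downregulated. For other retina genes, DESeq2 called 2 upregulated and 2 downregulated, no filter gave 3 and 2, a mean CPM of at least 1 gave 0 upregulated, and leaving out samples gave 0 to 3 upregulated and 1 to 2 downregulated. Over all genes, 262 upregulated and 284 downregulated calls became 452 and 442 with DESeq2, 506 and 497 with no filter, 524 and 606 at any fold change, and 39 to 642 and 35 to 531 with a sample left out. Log2 fold changes that changed sign with a sample left out ranged from -0.98 to 0.24 for Pax6, -1.79 to 1.97 for Six6, -0.61 to 0.22 for Crybb3, -0.84 to 0.18 for Pitx3, -0.24 to 0.0876 for Bfsp1 and -0.12 to 0.0801 for Elp4. Elp4 was at 0.0662 with library size alone. Of 46 fold changes of named genes, 42 kept their direction and side of the threshold with DESeq2, 46 with RLE factors, 44 with library size alone, 38 with no filter and 42 with the block, as did all 35 that a mean CPM of at least 1 retained. With a sample left out, 38 to 41 did, but without WT sample 2 only 31, where 12 no longer passed the threshold and 3 changed sign. The cause of these changes was not tested. Low counts limit Rax, Cryaa, Cryba1 and most other lens genes.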

Other observations

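Some pigment and periocular genes of the eye region, which neural crest also makes, were called higher, while others were not. Of 14 pigment epithelium genes, 7 were tested, and 2 were called upregulated and 0 downregulated by edgeR, with 3 at an unadjusted p under 0.05, beside 1.5% of all genes called upregulated and 29.5% at an unadjusted p under 0.05. Of the 7, 6 had a log2 fold change above 0 and 1 below. DESeq2 called 3 upregulated, Tyr, Dct and Pmel, and 1 downregulated, Ttr, which had 110, 13 and 7 counts in WT and 0 to 6 in Dlx2OE. Dct, a melanin synthesis enzyme, had 19, 20 and 16 counts in WT against 97, 72 and 74 in Dlx2OE samples 1 to 3 (log2 fold change 2.18, SE 0.278, adjusted p = 0.0104). Pmel, the melanosome fibril protein, had 23, 29 and 23 counts in WT against 153, 49 and 96 in Dlx2OE (log2 fold change 2.04, SE 0.439, adjusted p = 0.0381), and the call was lost in 4 of the 6 fits with a sample left out. Tyr, the tyrosinase gene, had 2, 7 and 1 counts in WT against 36, 12 and 21 in Dlx2OE (log2 fold change 2.79, adjusted p = 0.0543). For all 3, every Dlx2OE sample was above every WT sample, as for 16.7% of all genes tested. Rpe65, which defines pigment epithelium and was named after its values were seen, had at most 2 counts in any sample. The visual cycle gene Rlbp1 had 18 to 28 counts in WT and 8 to 16 in Dlx2OE (log2 fold change -0.92, adjusted p = 0.176). Dct and Pmel are equally markers of melanoblasts, and of the 8 tested genes on the glia and melanoblast list these same genes were the only 2 called. Pigment epithelium and melanoblasts as their source cannot be told apart here.

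Of the 9 periocular mesenchyme genes, all were tested, and 3 were called upregulated and 0 downregulated by edgeR, beside 1.5% of all genes tested that were called upregulated. An unadjusted p under 0.05 was found for 6, beside 29.5% of all genes tested. Only 3 of the 9 had a log2 fold change above 0 and 6 were below, with a median of -0.495. Every Dlx2OE sample was above every WT sample for 3 genes and below for 3, beside 16.7% and 17.3% of all genes tested. DESeq2 called 3 upregulated and 1 downregulated, Foxc1. Lmx1b, a LIM factor of the cornea and anterior eye segment and of other tissues, had 44, 13 and 7 counts in WT against 475, 355 and 228 in Dlx2OE (log2 fold change 4.05, SE 0.620, adjusted p = 0.0160). Foxl2, an eyelid factor, had 769, 353 and 733 counts in WT against 1404, 1396 and 1157 in Dlx2OE (log2 fold change 1.13, SE 0.264, adjusted p = 0.0456). Tfap2b had 864, 1395 and 1802 counts in WT against 6338, 2867 and 2555 in Dlx2OE (log2 fold change 1.58, SE 0.371, adjusted p = 0.0464). The call held in 5 of 6 fits with a sample left out for Lmx1b, 1 of 6 for Foxl2 and 2 of 6 for Tfap2b. Col8a2, a corneal collagen gene, had 1809 to 2439 counts in WT and 1140 to 1446 in Dlx2OE, with an adjusted p of 0.0422 but a log2 fold change of -0.69. The summed level of the list was 348 to 503 CPM in WT and 313 to 502 CPM in Dlx2OE.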
